A study of Homo sapiens with 4 samples.

Results

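Polycomb repressive complex 2 (PRC2) is represented here by 10 genes, picked by name for their place in the complex. They were chosen with earlier results of these data known. The catalytic subunits are EZH1 and EZH2, the core subunits SUZ12, EED, RBBP4 and RBBP7, and the accessory subunits PHF1, MTF2, PHF19 and JARID2. All 10 were found among the 40205 gene symbols of the count table, and all 10 were among the 16120 genes with enough counts to be tested. The libraries came from A549, an established human lung adenocarcinoma line, whose cells were transfected with small interfering RNA (siRNA) and harvested 24 h later. Negative-control siRNA was used for 2 libraries (controls 1 and 2). The other 2 (Knockdown-670 and Knockdown-732, numbers the labels do not explain) received siRNA against the long non-coding RNA SBF2-AS1. If those numbers name different siRNAs, the SD and SE of that group span 2 reagents and not repeats of 1. All 4 shared the line, the lipid transfection and the total RNA extraction, and no label says that replicates were separate cultures, so the p-values measure the spread between these libraries, which may be technical.

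PRC2 is the enzyme complex that methylates lysine 27 of histone H3 and thereby helps keep developmental genes silent. EZH1 or EZH2 supplies the methyltransferase (SET) domain, which works only when bound to SUZ12 and EED. SUZ12 is the scaffold, EED reads the trimethylated mark and stimulates the enzyme, and RBBP4 or RBBP7 holds histones. A core bound by PHF1, MTF2 or PHF19 is called PRC2.1, and a core bound by JARID2 and AEBP2 is called PRC2.2. EZH2 is typical of dividing cells and is often abundant in tumours, whereas EZH1 is also found in resting tissues.

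The libraries held 12149767 to 12938143 counts. The siRNA's target, SBF2-AS1, gave 57 and 79 counts under control siRNA against 15 and 18 under its own siRNA, or -1.94 on the log2 scale (SE 0.30, adjusted p = 3.19e-05 by edgeR). The line's epithelial origin was visible in its keratins (KRT18, 16127 to 32709 counts) but not in lung-defining genes: SFTPB and AQP5 had 0 counts in every library and NKX2-1 at most 3. The 10 epithelial markers summed to 3849 and 3971 CPM in the controls and to 2439.8 and 2318 CPM in Knockdown-670 and Knockdown-732, and 3 of the 4 that could be tested fell (KRT18, KRT8 and EPCAM); their part in the results on PRC2 was not tested. Of 17 markers of fibroblasts, immune cells and endothelium, 13 stayed under 1 CPM (counts scaled to a common library total) in every library. Fibroblast markers summed to 9.89 to 10.2 CPM in the controls and 10.2 to 13.4 CPM in the knockdown, immune markers to 14.99 to 18.3 and 14.5 to 14.7 CPM, and endothelial markers to 0.551 to 0.773 and 0.412 to 0.620 CPM. The markers that passed 1 CPM in some library were COL1A1 (106 to 136 counts), COL3A1 (9 to 17), CD14 (102 to 156) and ITGAM (62 to 76). PTPRC, COL1A2 and PECAM1, from the same lists, had at most 3 counts in any library.

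In the knockdown libraries the transcripts of the catalytic subunit EZH2, its partners SUZ12 and EED, and the accessory subunit PHF19 were about 1.8 to 2.5 times lower than in the controls, the histone-binding subunits RBBP7 and RBBP4 were slightly lower, and JARID2 was slightly higher. EZH1, PHF1 and MTF2 did not pass the test. In counts, 6 of the 10 genes fell and 1 rose at an adjusted p of 0.05 (edgeR quasi-likelihood test, Benjamini-Hochberg adjustment over all genes tested). Calls were common in these libraries: 46.3% of all tested genes were called, 22.8% lower and 23.5% higher. In 8 of the 10 genes both knockdown libraries lay on one side of both controls, as they did for 72.6% of all tested genes. Falls of at least 2-fold were called for EZH2, SUZ12 and PHF19, and for 4.63% of all tested genes. The median log2 fold change was -0.27 over the 10 genes and -0.002 over all genes tested. The RNA is bulk RNA, so fewer cells carrying a transcript and less of it per cell cannot be told apart.

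**Figure D1:**
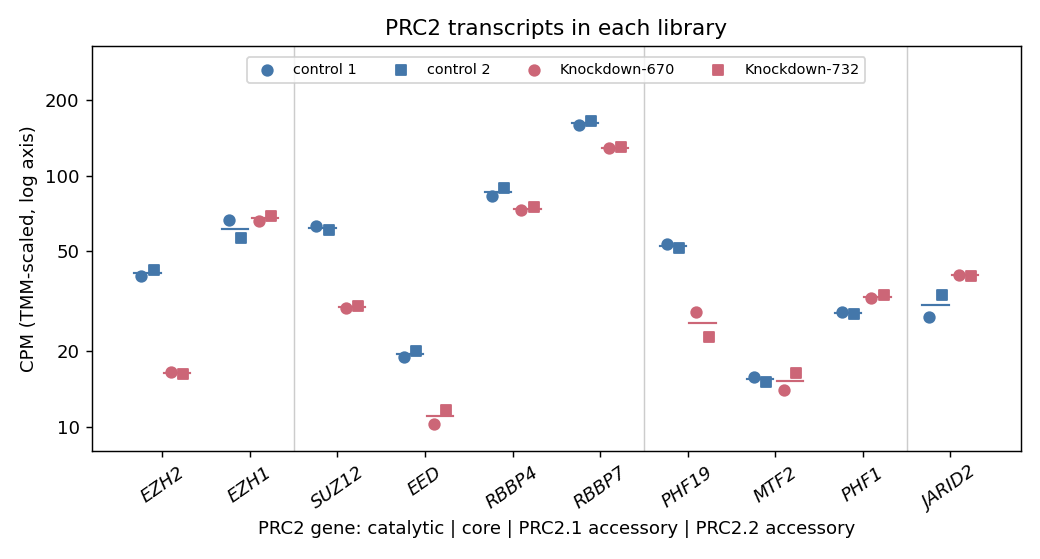
CPM, scaled by the trimmed mean of M-values (TMM), of each PRC2 gene on a log axis, with 1 point per library (blue, controls; red, knockdown) and a short line at the mean of each pair. The pairs lie well apart for EZH2, SUZ12, EED and PHF19, close together for RBBP4, RBBP7, PHF1 and JARID2, and overlap for EZH1 and MTF2.

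Promoter sequences are shown for the members that fell most, because these fell together, and for the E2F-type matches of EZH1 and MTF2, which were not called. Capitals mark matches on either strand to an E2F-type octamer (TTTCCCGC, TTTCGCGC, TTTGCCGC or TTTGGCGC), to the cell-cycle homology region (CHR, TTTGAA) or to the CCAAT box, the sequence read by NF-Y. The sequences are from RefSeq on GRCh38.p14, read 5′ to 3′ on the gene's strand, and positions count from the annotated start, whose first base is 1, with no position 0.
EZH2, -110 to 10, chr7:148884282-148884401, minus strand: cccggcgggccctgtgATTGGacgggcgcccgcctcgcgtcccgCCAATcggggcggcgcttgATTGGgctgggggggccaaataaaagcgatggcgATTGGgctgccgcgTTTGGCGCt
SUZ12, -200 to -20, chr17:31936807-31936987, plus strand: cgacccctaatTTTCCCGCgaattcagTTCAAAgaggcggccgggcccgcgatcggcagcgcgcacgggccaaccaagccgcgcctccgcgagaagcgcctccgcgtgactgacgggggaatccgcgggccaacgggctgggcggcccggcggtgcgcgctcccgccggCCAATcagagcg
PHF19, -220 to -130, chr9:120877318-120877408, minus strand: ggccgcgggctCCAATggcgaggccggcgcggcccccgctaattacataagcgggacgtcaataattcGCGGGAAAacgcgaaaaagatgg
EED, -60 to -1, chr11:86244693-86244752, plus strand: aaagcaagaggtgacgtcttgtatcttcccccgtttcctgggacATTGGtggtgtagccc
EZH1, -130 to -90, chr17:42745130-42745170, minus strand: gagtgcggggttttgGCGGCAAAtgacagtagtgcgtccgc
MTF2, -10 to 18, chr1:93079273-93079300, plus strand: atgcaccggcagtccGCGGGAAAccaaa

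Each window searched ran from 250 bases before the start to 50 after it, 1 window per gene, and no match in these 10 windows overlapped another. The RefSeq start used for PHF19, at 120877188, lies inside the gene's span, far from its GENCODE start at 120894896. The PHF19 matches are thus not those of the GENCODE start. An E2F-type octamer was found for EZH2, SUZ12 and PHF19 among the 6 genes that fell and for EZH1 and MTF2 among the other 4, against 3.31% of 35116 windows of all genes. The octamer occurred in members that fell and in members that did not, and its part in the falls was not tested. A CCAAT box was found in all 6 windows of genes that fell, 4 times in that of EZH2, and in 1 of the other 4 (JARID2), against 34.6% of all windows. The CHR was found for SUZ12 alone of the 10 genes, against 15.2% of all windows. The windows of all genes include several for some genes and genes that were not tested. They were not matched for GC content, which was 52.3 to 79.7% in the 10 windows, so their shares are a rough background only. These are matches of letters in 1 window per gene of the 10 and say nothing of whether a factor was bound.

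EZH2, the main H3K27 methyltransferase of dividing cells (chromosome 7, 148807383 to 148884321, minus strand, GRCh38), stood at 39.9 and 42.2 CPM in controls 1 and 2 and at 16.6 and 16.2 CPM in Knockdown-670 and Knockdown-732. Both knockdown libraries of EZH2 were far below both controls. The mean went from 41.1 ± 1.66 to 16.4 ± 0.231 CPM (SD, n = 2 each), 2.50-fold lower (log2 fold change -1.32, SE 0.11, edgeR adjusted p = 2.39e-08). Its paralogue EZH1, which makes a less active enzyme (chromosome 17, 42700275 to 42745049, minus strand), was at 66.6 and 56.3 CPM in the controls and at 65.9 and 69.5 CPM in the knockdown. The groups overlapped, and the log2 fold change of 0.14 (SE 0.09) did not pass (edgeR adjusted p = 0.213). Control 1 was the higher of the controls for EZH1, and without it the log2 fold change was 0.26 and passed (edgeR adjusted p = 0.0426), whereas an offset for GC content and length, described below, gave -0.015.

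The 2 enzymes share a place in the complex, so their ratio in each library was taken. The ratio of EZH2 to EZH1 CPM was 0.599 and 0.750 in controls 1 and 2 and 0.251 and 0.234 in Knockdown-670 and Knockdown-732, a shift of -1.47 on the log2 scale. All values in the knockdown lay below those in the controls, but an exact permutation test of 2 against 2 libraries cannot go below p = 0.33, so the ratio has no call of its own.

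SUZ12, the scaffold of the core (chromosome 17, 31937018 to 32001045, plus strand), was at 63.1 and 60.8 CPM in the controls and at 29.6 and 30.2 CPM in the knockdown. The libraries of each group nearly coincided, and the fall was 2.07-fold (log2 fold change -1.05, SE 0.09, edgeR adjusted p = 2.69e-08). EED, the reader of the trimethyl mark (chromosome 11, 86244544 to 86278813, plus strand), was the scarcest of the genes that fell, at 19.0 and 20.1 CPM in the controls and 10.3 and 11.7 CPM in Knockdown-670 and Knockdown-732. Its log2 fold change was -0.83 (SE 0.14, adjusted p = 9.00e-05 by edgeR). EZH2 fell somewhat more than its partners: the ratio of EZH2 to EED CPM went from 2.098 and 2.102 to 1.61 and 1.39, and that of EZH2 to SUZ12 from 0.632 and 0.694 to 0.559 and 0.538, neither with a test that could make a call.

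SUZ12 has a near-identical pseudogene copy, SUZ12P1, with 59 and 71 counts under control siRNA and 49 and 55 under SBF2-AS1 siRNA, and the copies of SUZ12 in the table held 9.94% as many counts as SUZ12 itself. The assignment of reads shared by such copies (not given in the sources used here) could split them. With their counts added to SUZ12 the log2 fold change was -0.97. EZH2P1 had at most 1 count in any library.

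RBBP4 and RBBP7, which also serve other chromatin complexes, had smaller fold changes. RBBP7 (chromosome X, 16839283 to 16870414, minus strand) was at 160 and 165 CPM in the controls and at 129 and 130 CPM in the knockdown, a log2 fold change of -0.32 (SE 0.07, adjusted p = 0.000842 by edgeR). RBBP4 (chromosome 1, 32651142 to 32686211, plus strand) was at 83.5 and 89.4 CPM in the controls and at 73.0 and 74.9 CPM in the knockdown, a log2 fold change of -0.23 (SE 0.08, adjusted p = 0.0227 by edgeR). For both genes the knockdown libraries lay below the controls. The RBBP4 call was lost without control 2 (log2 fold change -0.18, edgeR adjusted p = 0.135), without Knockdown-670 (-0.21, 0.101) and in DESeq2 (-0.23, adjusted p = 0.0935), and that of RBBP7 with the GC and length offset (-0.16, edgeR adjusted p = 0.0533). Pseudogene copies of RBBP4 held 18.6% as many counts as RBBP4, and with them added its log2 fold change was -0.24. RBBP4 overlaps SYNC, and RBBP7 overlaps TXLNG, on the opposite strand. TXLNG had 838 and 701 counts under control siRNA and 500 and 516 under SBF2-AS1 siRNA, SYNC had 154 to 190 in all 4 libraries, and reads of such pairs cannot be told apart without strand. The ratio of RBBP4 to RBBP7 CPM was 0.523 and 0.542 in controls against 0.565 and 0.575 after knockdown, so the pair kept nearly the same proportion.

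The 3 Polycomb-like proteins of PRC2.1, which carry a Tudor domain that binds methylated H3K36 and a winged helix that binds unmethylated CpG DNA, can replace one another in the complex. PHF19 (chromosome 9, 120855652 to 120894896, minus strand) was at 53.7 and 51.5 CPM in the controls and at 28.7 and 22.9 CPM in Knockdown-670 and Knockdown-732. Both knockdown libraries were well below the controls, with a log2 fold change of -1.03 (SE 0.11, adjusted p = 4.03e-07 by edgeR). It differed more between the knockdown libraries than any other of the 10 genes did, with Knockdown-732 lower by 0.33 on the log2 scale; its log2 fold change was -1.20 without Knockdown-670 and -0.88 without Knockdown-732. MTF2 (chromosome 1, 93079235 to 93139081, plus strand) was at 15.8 and 15.04 CPM in the controls and at 14.0 and 16.4 CPM in the knockdown. The MTF2 window, like that of PHF19, holds an E2F-type octamer. The MTF2 values overlapped, with a log2 fold change of -0.02 (SE 0.14, adjusted p = 0.933 by edgeR) whose sign turned in 3 of 14 alternative analyses. PHF1 (chromosome 6, 33410399 to 33416453, plus strand) was at 28.5 and 28.2 CPM in the controls and at 32.5 and 33.3 CPM in the knockdown. The groups of PHF1 did not overlap, but its log2 fold change of 0.22 (SE 0.11) did not pass (edgeR adjusted p = 0.104). CUTA, which overlaps PHF1 on the opposite strand, had 319 and 324 counts in controls 1 and 2 and 451 and 416 in Knockdown-670 and Knockdown-732.

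Set against the other two, PHF19 was lower after knockdown. The ratio of PHF19 to PHF1 CPM was 1.88 and 1.83 in controls 1 and 2 and 0.883 and 0.686 in Knockdown-670 and Knockdown-732, and the ratio of PHF19 to MTF2 was 3.41 and 3.42 against 2.05 and 1.39. Neither ratio can be called from 2 libraries a group.

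JARID2, the PRC2.2 subunit that binds nucleosomes carrying ubiquitylated H2A (chromosome 6, 15246296 to 15522040, plus strand), was the member that rose. It was at 27.4 and 33.6 CPM in the controls and at 40.2 and 39.9 CPM in the knockdown. The controls differed from each other by 0.30 on the log2 scale, more than for any other member, and both lay below both knockdown libraries. The log2 fold change was 0.39 (SE 0.11, adjusted p = 0.00692 by edgeR). Without control 1, the lower control, it was 0.25 and did not pass (edgeR adjusted p = 0.128), and with the GC and length offset it was 0.20 and did not pass (edgeR adjusted p = 0.113). The ratio of JARID2 to PHF19 CPM, a PRC2.2 subunit against a PRC2.1 subunit, went from 0.509 and 0.653 in the controls to 1.402 and 1.74 in the knockdown.

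**Figure D2:**
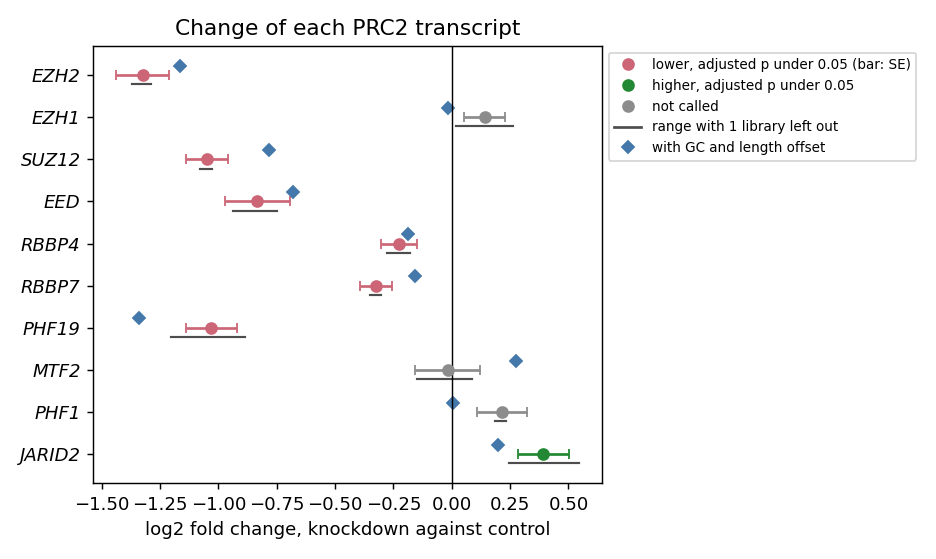
Log2 fold change (knockdown against control, 2 libraries each) of the 10 PRC2 genes with its SE, coloured by call, above a line for the range when 1 library is left out and below a diamond for the value with the GC and length offset. EZH2, SUZ12, EED and PHF19 lie at or below -0.68 in each of these, while EZH1, MTF2 and PHF1 lie near 0.

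Fold changes in these libraries went with base composition: across 14705 genes, which are not independent replicates, Spearman's rho between log2 fold change and transcript GC content was 0.361, as a description. The GC content of the representative transcript was 38.0% for SUZ12, 37.9% for MTF2 and 41.6% for RBBP4, and 59.9% for PHF1, 57.9% for PHF19 and 50.2% for JARID2. With a spline on GC content and length entered as an offset, EZH2 was at -1.16, SUZ12 at -0.78, EED at -0.68 and PHF19 at -1.34, all still called by edgeR. RBBP7 and JARID2 were no longer called, and MTF2 moved to 0.28, also not called (edgeR adjusted p = 0.101). PHF19, rich in GC, fell further under the offset, and the GC-poor SUZ12 fell less.

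Levels of different genes can be compared only per length. Per kb of representative transcript, the controls had 69.6 ± 1.66 CPM of RBBP7, 15.6 ± 0.631 of EZH2, 13.8 ± 0.354 of SUZ12, 13.3 ± 1.57 of EZH1, 12.4 ± 0.378 of PHF19, and 12.2 ± 0.103 of PHF1 (SD, n = 2). Below these came 10.9 ± 0.526 of RBBP4, 8.80 ± 0.345 of EED, 5.30 ± 0.770 of JARID2 and 3.73 ± 0.126 of MTF2 (SD, n = 2). EZH1, at 12.2 to 14.4, overlapped its neighbours SUZ12 (13.5 to 14.05), PHF19 (12.1 to 12.7) and PHF1 (12.1 to 12.24), and PHF19 overlapped PHF1. Both SUZ12 values lay above those of PHF19 and PHF1, and no other neighbours in the order overlapped. In the knockdown the same scale gave 55.6 ± 0.306 for RBBP7, 14.6 ± 0.551 for EZH1, 14.1 ± 0.245 for PHF1, 9.31 ± 0.163 for RBBP4, 6.96 ± 0.0465 for JARID2, 6.66 ± 0.0856 for SUZ12, 6.21 ± 0.0874 for EZH2, 6.08 ± 0.975 for PHF19, and 4.93 ± 0.441 for EED, with the lowest level at 3.68 ± 0.408 for MTF2 (SD, n = 2). EZH1 and PHF1 overlapped, as did PHF19 with SUZ12 and EZH2. EZH2 thus went from just above EZH1 per kb in the controls to well below it in the knockdown. These levels rest on 1 annotated transcript per gene, 7943 nt for RBBP4 and 2333 nt for RBBP7, and another choice of transcript would move them.

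**Figure D3:**
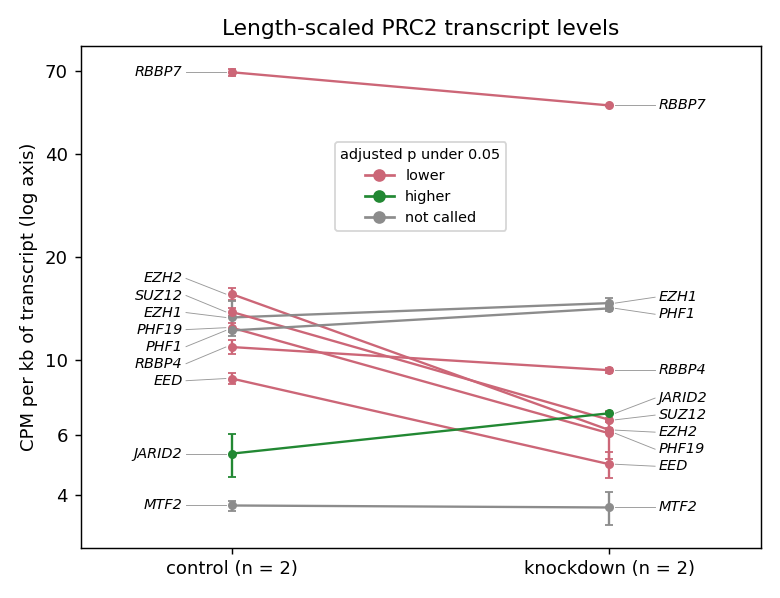
CPM per kb of representative transcript (log axis) of each PRC2 gene in the controls and the knockdown, as the mean of 2 libraries with its SD, coloured by call. EZH2, SUZ12 and PHF19 start beside EZH1 and PHF1 and end below RBBP4, near JARID2.

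The genes closest to EZH2 in their pattern over the 4 libraries, by Euclidean distance in log2 CPM after subtracting each gene's own control mean, among 11904 genes of at least 5 CPM, were CENPO, MKI67, RAD54B, CCDC111 and KDELC2, at distances of 0.03 to 0.08. CENPO is a centromere protein, MKI67 the proliferation antigen Ki-67 and RAD54B a recombination protein. No function is given here for CCDC111 and KDELC2. With 2 libraries per group such a distance mostly matches genes by the size of their fall, here -1.38 to -1.29 on the log2 scale. A shared function was not tested. MKI67 went from 412 ± 27.6 to 169 ± 0.0669 CPM (SD over 2 libraries each), or -1.29 on the log2 scale (SE 0.07, adjusted p = 6.33e-11 by edgeR).

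Because EZH2 and EED are known targets of E2F factors, genes of the division cycle are given beside them. Their lists were chosen with earlier results of these data known, so their counts are a description only. Over all tested genes, 22.8% were called lower and 23.5% higher. Of 24 E2F and replication genes 23 fell and 0 rose in edgeR (0 rose also at an unadjusted p of 0.05, in DESeq2 and in limma-voom), with a median log2 fold change of -1.37; RRM1, a subunit of ribonucleotide reductase, was at -1.98, the helicase subunit MCM4 at -1.46 and thymidine kinase TK1 at -1.39. The exception was UHRF1, which binds hemimethylated DNA and was at -0.03 on the log2 scale (SE 0.18, adjusted p = 0.91 by edgeR); its sign turned without control 2 and without Knockdown-732. All 15 mitosis genes fell, with a median of -1.64; TPX2 was at -1.77, TOP2A at -1.65 and CENPF at -1.64. Of 15 regulators of the E2F, RB and MuvB families 10 fell and 0 rose in edgeR. None rose in DESeq2 or limma-voom either, but 1 did at an unadjusted p of 0.05 and without control 1, and 2 with the GC and length offset. E2F1 went from 32.4 ± 1.21 to 10.5 ± 0.775 CPM (SD over 2 libraries each), or -1.63 on the log2 scale (SE 0.13, adjusted p = 1.07e-08 by edgeR), FOXM1 was at -1.31, MYBL2 at -1.18 and RBL1 at -1.94. SUZ12, at -1.05, was nearer to 0 than the medians of the replication and mitosis lists. EZH2, at -1.32 (SE 0.11), was nearer to 0 than the mitosis median but close to the replication median of -1.37. These differences have no test here. The part of the division cycle in the lower PRC2 transcripts was not tested.

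Among the remaining PRC2 accessory genes 1 call was made. Of 6 tested, 1 rose and 0 fell in edgeR (median 0.08; 1 lower at an unadjusted p of 0.05, 0 in DESeq2 and 1 in limma-voom), a share called of 16.7% beside 46.3% of all genes: LCOR, whose locus also encodes a PRC2.1 subunit, PALI1, went from 25.2 ± 1.27 to 35.1 ± 1.497 CPM (SD over 2 libraries each), or 0.48 on the log2 scale (SE 0.11, adjusted p = 0.00138 by edgeR). TCEB2, which encodes elongin B, had the largest fold change of the list and was not called: it was at 218 and 149.9 CPM in controls 1 and 2 and at 275 and 261 CPM in Knockdown-670 and Knockdown-732 (0.55 on the log2 scale, SE 0.21, adjusted p = 0.134 by edgeR). AEBP2, which joins JARID2 in PRC2.2, was at 30.6 ± 2.86 and 25.0 ± 1.91 CPM and just missed the threshold (log2 fold change -0.29, SE 0.12, edgeR adjusted p = 0.0506). In 7 of 14 alternatives 1 gene of this list fell, and in 6 of the 14, which include each leave-out of 1 library, 2 rose. EPOP, listed under its older symbol C17orf96, stood at 0.05 on the log2 scale (not called). EZHIP (CXorf67), a PRC2 inhibitor, had at most 1 count in any library.

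PRC1, the complex that ubiquitylates H2A and includes readers of the H3K27 mark, had 9 of 30 genes higher and 8 lower, with a median of 0.05. Those counts are near the background, where 23.5% of all genes were higher and 22.8% lower. The chromobox readers CBX6 and CBX7 were at 0.64 and 0.87 on the log2 scale, the BCOR-like corepressor BCORL1 at 0.87, and YAF2 at -0.66, all called. In DESeq2 8 rose and 5 fell, and when tested against a 1.2-fold change 4 rose and 1 fell. Fewer also fell with any 1 library left out.

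Enzymes that oppose PRC2 were called in both directions. The H3K27 demethylase KDM6B went from 70.2 ± 2.06 to 99.4 ± 2.42 CPM (log2 fold change 0.50, SE 0.08, edgeR adjusted p = 2.64e-05), and the demethylase KDM6A from 37.7 ± 2.66 to 26.3 ± 3.35 CPM (SD over 2 libraries each), or -0.52 on the log2 scale (SE 0.11, adjusted p = 0.00117 by edgeR). With the GC and length offset none of the 4 genes of H3K27 demethylation and acetylation rose and 3 fell. Of 16 COMPASS genes, which make and support H3K4 methylation, 8 rose and 2 fell (median 0.20), a share called of 62.5% beside 46.3% of all genes. The methyltransferases KMT2C, KMT2A and KMT2D were at 0.66, 0.53 and 0.51, and the subunits that fell were ASH2L, at -1.12, and WDR5, at -0.31. Those counts became 5 and 5 with the GC and length offset, 5 and 2 in DESeq2, and 4 and 1 when tested against a 1.2-fold change. With library size only 4 were lower, and fewer rose without control 1. Of 10 PR-DUB genes, the complex that removes ubiquitin from H2A, 2 rose (FOXK1 at 0.74 and FOXK2 at 0.25) and 1 fell (ASXL1 at -0.33). The share called, 30%, was below the 46.3% of all genes. With the GC and length offset 3 fell. With library size only 1 rose, and fewer rose without control 1. Tested against a 1.2-fold change, 1 rose and 0 fell.

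RBBP4 and RBBP7 also belong to the NuRD and SIN3 deacetylase complexes, the chromatin assembly factor CAF-1, the remodeller NURF, the acetyltransferase HAT1 and MuvB. Of 30 such genes 14 fell and 4 rose, with a median of -0.21 and a share called of 60% beside 46.3% of all genes. HAT1 was at -2.08 and the CAF-1 subunits CHAF1B and CHAF1A, which deposit histones at replication forks, at -1.50 and -1.35, whereas the NURF subunit SMARCA1 was at -0.65. The genes that rose were SIN3B, MTA1, LIN37 and GATAD2B. The 14 that fell became 7 in DESeq2, 6 when tested against a 1.2-fold change, and fewer without Knockdown-670. The 4 that rose became 2 in DESeq2, 1 when tested against a 1.2-fold change, and more without Knockdown-732.

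Genes that PRC2 is known to silence were read last. Of 39 HOX cluster genes 26 had enough counts to be tested, and 4 of them rose and 0 fell in edgeR (0 fell also at an unadjusted p of 0.05, in DESeq2 and in limma-voom), a share called of 15.4%, beside 46.3% of all genes. HOXD9 stood at 6 and 4 counts under control siRNA and at 27 and 18 in Knockdown-670 and Knockdown-732, and HOXA5 and HOXA7 were at 0.85 and 0.68 on the log2 scale. The 4 that rose became 2 without control 1, without Knockdown-732 and in DESeq2, and 1 with a minimum of 5 CPM.

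Of 32 genes described as silenced by EZH2 in cancer cells 19 could be tested, and 6 rose and 1 fell. The share called was 36.8%, below the 46.3% of all genes, of which 23.5% were higher. The called genes of smallest p were the angiogenesis inhibitor VASH1, at 0.91 on the log2 scale, the transcription factor KLF2 at 0.96, the Ras GTPase activator DAB2IP at 0.54, and BMPR1B, the BMP receptor that fell, at -0.96. The median was 0.14. That list became 3 higher and 1 lower without control 1 and in DESeq2, 6 and 2 without control 2, and 2 and 3 with the GC and length offset. CDKN2A and CDKN2B, which encode inhibitors of CDK4 and CDK6, had 0 counts in all 4 libraries. Counts of 0 do not show whether PRC2 silenced these genes, and the state of their locus was not tested. H3K27 methylation itself was not measured in these libraries.

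**Figure D4:**
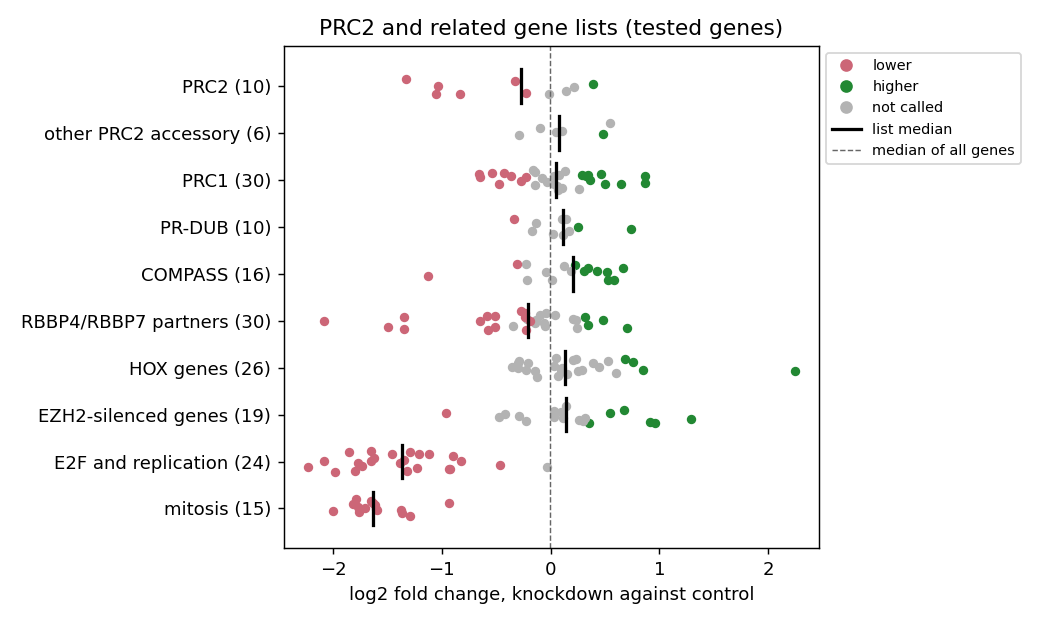
Log2 fold change of each tested gene in PRC2 and in 9 related lists (number tested in parentheses), coloured by call at an adjusted p of 0.05, with a bar at each list's median and a dashed line at the median of all genes. PRC2 spreads from -1.32 to 0.39, while the E2F and mitosis lists lie almost wholly to the left and the HOX and EZH2-silenced lists around 0.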

How the data were processed

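The values used are the authors' deposited whole-number counts for each gene symbol in 4 libraries of bulk RNA. The build named by the submitters' processing notes is GRCh37; for the aligner, the counting program and any use of strand: not given in the sources used here. Groups were taken from the sample titles; 0 columns belonged to no sample and 0 entries named no gene. Counts were tested in R 4.3.3 with edgeR 4.0.16 (filterByExpr, TMM, robust glmQLFit and glmQLFTest, Benjamini-Hochberg adjustment over all genes tested, threshold 0.05). SE is the log2 fold change over the root of F, and SD is over 2 libraries. Between replicates the chi-square per gene was 3.42 to 3.72, above the 1 of counting noise, so none was treated as a copy; the coefficient of biological variation was 6.64%. The scripts were tested on simulated data.

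The table holds no coordinates, so positions, GC content and length came by symbol from GENCODE v29 on GRCh38 (1 transcript per gene, APPRIS principal first, then longest), which gave GC content and length for 91.2% of the genes tested. Promoters came from a RefSeq table of GRCh38.p14, taking the window nearest to the GENCODE start where a gene had several, with no limit on the distance. All 10 genes matched, but the PHF19 window lies inside the gene's span.

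The genes and lists, 17 in all, were chosen with earlier results of these data known. Named genes were SBF2-AS1, the 10 PRC2 genes, E2F1, MKI67, UHRF1, the 5 genes nearest to EZH2, and from each list up to 4 called genes of smallest p and any minority of at most 5; 1 gene so chosen is not reported here. AEBP2, TCEB2, EPOP, EZHIP, CDKN2A, CDKN2B, copies, overlapping genes and cell type markers were named after their values were seen. The alternatives changed the scaling (library size only, upper quartile or size factors from DESeq2), the filter (none, or at least 5 CPM in 2 libraries), the libraries (each left out in turn) and the model: DESeq2 1.42.0, limma-voom (limma 3.58.1), glmTreat against 1.2-fold, and a GC and length offset (splines of 4 degrees of freedom per library). Adding pseudogene copies to their parents was chosen after seeing the data.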

Additional observations from a re-analysis of the deposited data

How the results depend on the processing

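EZH2, SUZ12, EED and PHF19 were called lower in all 14 alternatives, with log2 fold changes of -1.39 to -1.16, -1.11 to -0.78, -0.94 to -0.68 and -1.34 to -0.88. RBBP4 was not called in 4, RBBP7 in 2 and JARID2 in 3 of the 14. Tested against a 1.2-fold change, 2451 genes were higher and 2229 lower in place of 3785 and 3678, and of the 10 PRC2 genes 4 were lower and 0 higher. With the GC and length offset 5 were lower and 0 higher; that offset also removes any real change that follows GC content. The sign turned for 3 genes that were not called: EZH1 stood at -0.015 with the offset, MTF2 at 0.28 with the offset and at 0.012 and 0.087 without control 1 and without Knockdown-670 (-0.15 to 0.087 over single libraries left out), and UHRF1 at 0.13 and 0.21 without control 2 and without Knockdown-732 (-0.33 to 0.21); the cause was not tested. A library left out leaves its group with 1 library, assumed to vary like the other group. No paired analysis was possible because the control and knockdown titles share no replicate number. With 2 libraries per group, changes of the size seen for RBBP4, PHF1 and EZH1 are at the limit of what the counts resolve.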

Other observations

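Writers and readers of chromatin marks that PRC2 avoids were measured in the same libraries. H3K36 methylation blocks PRC2 on active genes, and 3 of its methyltransferases fell: NSD2, listed under its older symbol WHSC1, was at -0.39 on the log2 scale (edgeR adjusted p = 0.000135), NSD3 (WHSC1L1) at -0.35 and NSD1 at -0.32. SETD2, another H3K36 methyltransferase, was at -0.18 and was not called (edgeR adjusted p = 0.0649). The DNA methyltransferase DNMT3A, which reads H3K36 methylation, rose by 0.34 (edgeR adjusted p = 0.0172); it was not called without control 1, without either knockdown library, in DESeq2, against a 1.2-fold change or with the GC and length offset. That list of 6 genes had 3 lower and 1 higher, where 46.3% of all tested genes were called and 22.8% were lower. Tested against a 1.2-fold change, 1 gene of the list was lower, and with the GC and length offset 4 were.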
